A study of Drosophila melanogaster with 3 samples.

Results

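Nucleoporins are the proteins that build the nuclear pore, and 21 protein-coding genes of Drosophila melanogaster carry a symbol made of Nup and a number. With earlier results of these data known, they were chosen by that symbol, out of 13945 protein-coding genes annotated on the chromosome arms. Their promoters were examined for sites called by chromatin immunoprecipitation followed by sequencing (ChIP-seq) of CG16815, an uncharacterised protein. The material was whole embryos of both sexes, 0 to 10 hours old, from a transgenic line with stable expression of CG16815 that carries green fluorescent protein (GFP) at its C terminus. An antibody to GFP was used for the precipitation. All 3 biological replicates belong to this 1 group, so there is no second condition to compare. The sources used here do not name the promoter that drives the transgene. Neither an untagged control nor expression values were analysed here, so signal that does not depend on the tagged protein cannot be told apart from binding.

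The nuclear pore is a ring of stacked protein assemblies set in the nuclear envelope, through which proteins and RNA pass. An outer ring, the Y complex, and an inner ring form its scaffold. Proteins with phenylalanine-glycine repeats line the central channel, filaments reach into the cytoplasm, and a basket faces the nucleus. In the early embryo nuclei divide rapidly and pores are assembled in large numbers from maternal stores. Some nucleoporins, Nup98 among them, also contact chromatin away from the pore.

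The deposited data are lists of called regions on the dm6 build, 1 for each replicate, 1 for the replicates pooled, and a final list of 3922 regions kept by the authors at a threshold on the irreproducible discovery rate. Regions of the final list are called passing sites. The replicate lists held 30000, 21989 and 27358 regions, and the pooled list 18764, all with background included. Depth is unknown, because the lists hold no read counts. Signal, the authors' own value per region, was used only to rank regions within a list (rank 1 is the strongest). To put the replicates on an equal footing, the 3922 best-ranked regions of each are called its N best. A gene is called bound where the summit of a passing site lay at most 500 bp from a transcription start site (TSS) of it.

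Sequences are shown for the 5 bound nucleoporin promoters and for Nup160, the promoters on which the results turn. Each was read from the Release 6 genome, which has dm6 coordinates, on the strand of the nucleoporin gene. For Nup37, Nup98-96, Nup133 and Nup160 the whole stretch between the nucleoporin TSS and that of the divergent gene beside it is given. The stretches at Nup43 and Nup93-2 are longer, so only the part outside exons of the window that reaches 50 bp to each side of the summit is given. Capitals mark any of 10 short words searched on both strands, which are named with the sequence results. In the Nup37 stretch the longer run of capitals is TATAAA on both strands, overlapping.
Nup37–RpS27, chr3R:25247515-25247657, plus strand: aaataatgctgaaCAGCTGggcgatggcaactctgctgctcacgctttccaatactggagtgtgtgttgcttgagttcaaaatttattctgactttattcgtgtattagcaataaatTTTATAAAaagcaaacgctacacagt
Nup98-96–mbc, chr3R:23781622-23781764, minus strand: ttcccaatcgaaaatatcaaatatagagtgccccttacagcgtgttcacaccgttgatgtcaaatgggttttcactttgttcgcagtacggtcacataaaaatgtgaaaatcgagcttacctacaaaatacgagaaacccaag
Nup133–wfs1, chr3R:22690381-22690606, plus strand: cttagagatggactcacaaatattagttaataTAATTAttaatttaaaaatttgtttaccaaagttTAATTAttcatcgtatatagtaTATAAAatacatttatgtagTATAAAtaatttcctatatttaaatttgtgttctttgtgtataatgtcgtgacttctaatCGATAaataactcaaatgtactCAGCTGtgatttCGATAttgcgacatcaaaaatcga
Nup160–Csl4, chr2L:11123568-11123776, plus strand: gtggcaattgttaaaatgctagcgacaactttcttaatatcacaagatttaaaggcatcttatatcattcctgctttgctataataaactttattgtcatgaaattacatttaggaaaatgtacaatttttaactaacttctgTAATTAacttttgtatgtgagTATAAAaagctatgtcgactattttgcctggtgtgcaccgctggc
Nup43–WRNexo, chr3R:18366387-18366487, plus strand: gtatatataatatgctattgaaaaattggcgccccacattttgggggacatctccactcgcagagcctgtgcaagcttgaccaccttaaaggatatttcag
Nup93-2–CG3817, chr3R:14898373-14898451, minus strand: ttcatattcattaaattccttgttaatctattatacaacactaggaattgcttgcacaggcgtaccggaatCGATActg
The passing summit lay at base 10 of the Nup37 stretch, next to RpS27, and at base 83 of the Nup133 stretch. At Nup43 and Nup93-2 it lay at base 51. At Nup98-96 it fell outside the stretch, 62 bp downstream of the TSS. The replicate 2 summit lay at base 165 of the Nup160 stretch, which held no passing site.

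Passing sites were found at 5 of the 21 nucleoporin genes, or 23.8% (95% exact binomial interval 8.22 to 47.2), namely Nup37, Nup98-96, Nup133, Nup93-2 and Nup43. Over all protein-coding genes the share was 15.9% (2220 genes), which lies inside that interval. Among the N best of the replicates, 4 members had a summit at a TSS in replicate 1, against 14.3% of all coding genes. In replicate 2 it was 6 members, against 16.5%, and in replicate 3 it was 4 members, against 14.3%. The mean over replicates was 22.2% ± 5.50 (SD, n = 3) for nucleoporin genes and 15.0% ± 1.24 for all coding genes. The members' share was above that of all coding genes in each of the 3 replicates, but a count of 4 of 21 has an interval of 5.45 to 41.9%, so no difference from other coding genes was shown. Counting any region of the pooled list, 10 members had one, against 32.2% of coding genes. Of the 10 members with a pooled region 5 passed, as did 49.5% of the coding genes with one. When a summit at a TSS was required in the N best of every replicate, in place of a passing site, 3 members met it (Nup37, Nup98-96 and Nup160). So did 10.4% of all coding genes. The count of members was again 3 when these summits also had to lie within 150 bp of that of the first replicate used. The share of coding genes was then 10.3%. With that condition 3 members met the rule without replicate 2 (10.5% of coding genes), and 4 without replicate 1 (12.1%) or replicate 3 (13.0%).

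**Figure D1:**
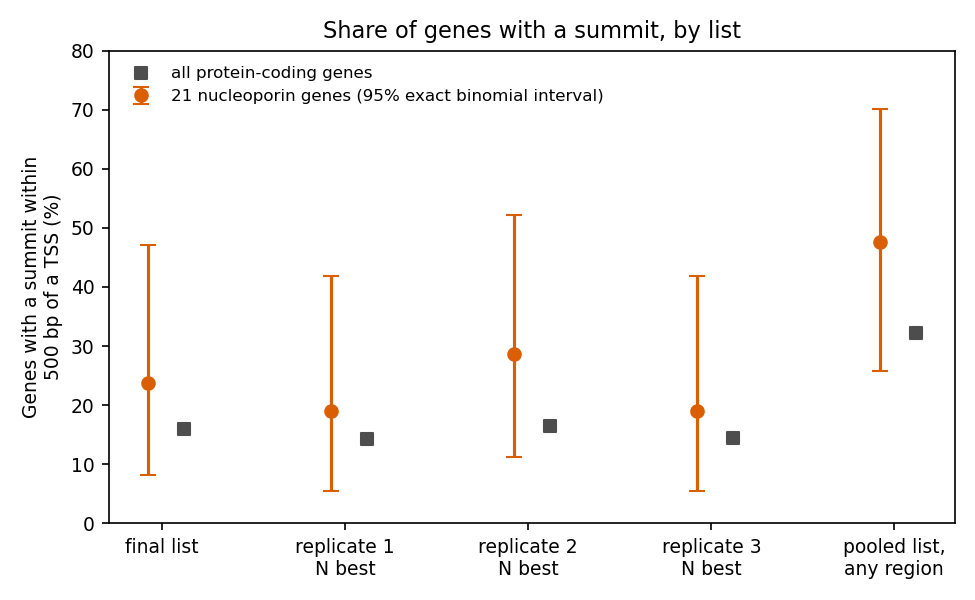
Share of genes with a summit within 500 bp of a TSS (y axis, percent) in each list (x axis). Circles are the 21 nucleoporin genes with 95% exact binomial intervals and squares are all protein-coding genes. The circles lie above the squares in each list, and the squares lie inside each interval.

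Of the 5 bound members 4 encode subunits of the outer ring, out of 8 outer ring genes with a Nup symbol, beside 15.9% of all coding genes. Of those 8, all but Nup107 lay head to head with another coding gene within 500 bp, and 32.0% of such coding genes were bound. With each summit given only to the nearest TSS, Nup37 and Nup133 were not bound. Whether the parts of the pore differ was not tested. Nup37 (FBgn0039301, chr3R:25247658-25249100, plus strand), a small subunit of the Y complex, had the strongest site, with a signal of 791.8 and rank 188 in the final list, in an upstream region at chr3R:25247365-25247669. Its rank was 492 in replicate 1, 214 in replicate 2 and 95 in replicate 3, so it was far inside the N best of all. The replicate summits lay 1, 14 and 0 bp from the passing summit. Nup98-96 (FBgn0039120, chr3R:23774225-23781621, minus strand) encodes a precursor that is cleaved into Nup98, a mobile protein of the channel, and Nup96, a core subunit of the Y complex. Its site had a signal of 495.0 and rank 507 (chr3R:23781432-23781697), with ranks of 387, 570 and 821 in replicates 1, 2 and 3. The summits of replicates 2 and 3 fell within 1 bp of the passing summit, and that of replicate 1 lay 46 bp from it. It was the 1 bound member whose summit lay downstream of the TSS, in an exon of its longer transcript, whereas 90.8% of bound coding genes had the summit upstream.

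Nup133 (FBgn0039004, chr3R:22690607-22694772, plus strand), at the tail of the Y, had a signal of 184.0 and rank 2465 (chr3R:22690255-22690670). Replicate 1 ranked it 2962 and replicate 2 ranked it 2140, both inside the N best, whereas replicate 3 ranked it 4284, outside. Nup43 (FBgn0038609, chr3R:18366638-18367913, plus strand), a small subunit, had a signal of 148.8 and rank 3229 (chr3R:18366229-18366644), with ranks of 4410, 3022 and 3075. Only replicate 1 placed it outside the N best. Its summit position also varied more than that of Nup133, since replicates 1 and 3 placed it 94 and 82 bp from the passing summit, on opposite sides. Of the other Y complex members, Nup160 is described next, and the remaining 3 were weak or had no site. Nup107 had ranks of 8285 in replicate 1 and 4445 in replicate 2 and no summit in replicate 3, and the summits of replicates 1 and 2 lay apart, 452 and 167 bp upstream. Its pooled region ranked 6840, and of its regions only that of replicate 2 had a q under 0.05. Nup44A, the fly Seh1, had 1 background summit, of rank 27712 in replicate 1, and Nup75 had none.

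**Figure D2:**
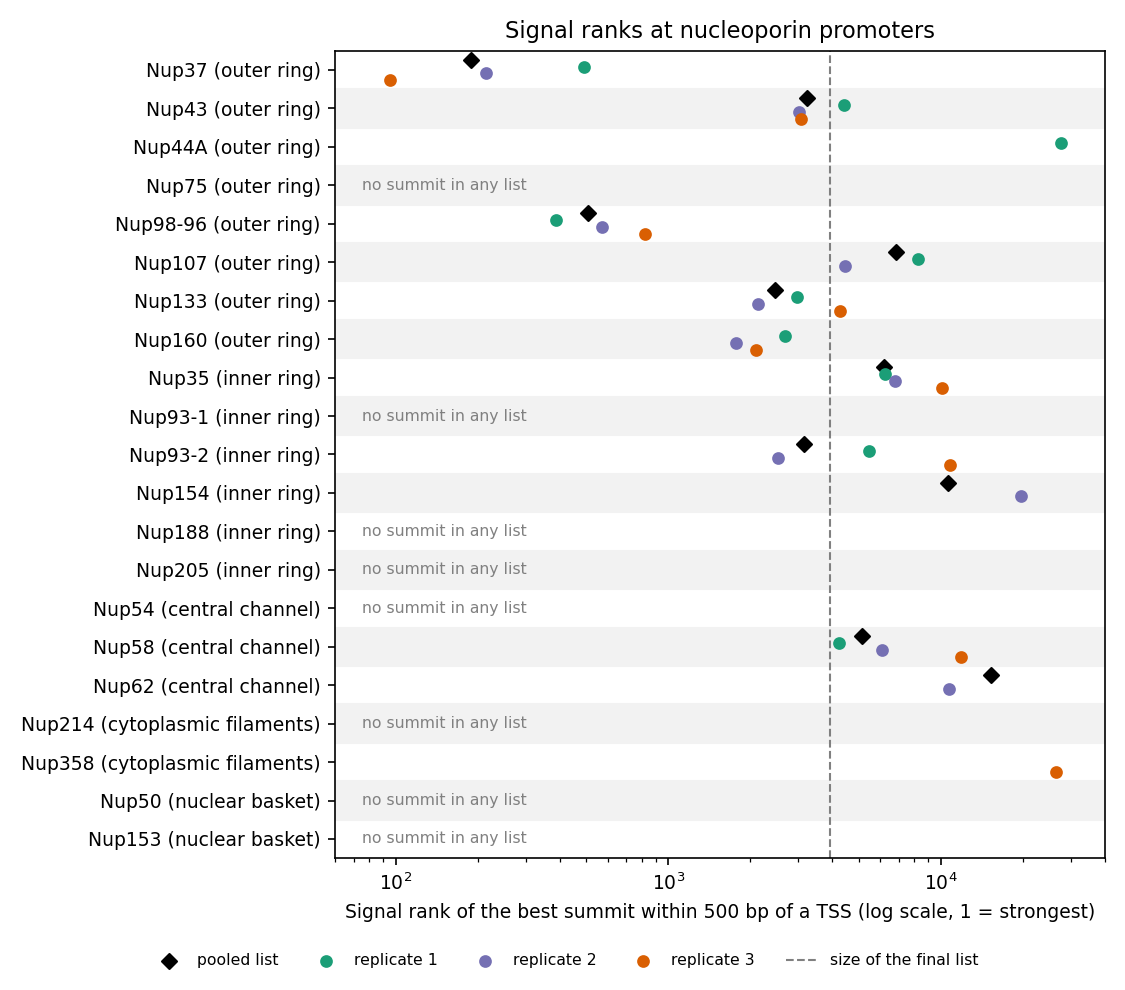
Signal rank of the best summit within 500 bp of a TSS (x axis, log scale) for each nucleoporin gene (y axis, with its part of the pore), in the pooled list (diamonds) and in the replicates (circles). The dashed line marks rank 3922, the size of the final list. Nup37 and Nup98-96 lie far to its left in all lists, Nup160 lies to its left in the 3 replicates with no diamond, and 8 genes have no summit.

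Nup160 (FBgn0262647, chr2L:11123777-11129335, plus strand), a large scaffold subunit of the Y complex, was called in each replicate but not in the pooled list. Its rank was 2679 in replicate 1, 1765 in replicate 2 and 2101 in replicate 3, each inside the N best and each with a q under 0.05. The summits lay 35, 45 and 51 bp upstream of the TSS, a spread of 16 bp. Nup37, Nup98-96 and Nup160 were the 3 nucleoporin genes with an N-best summit at a TSS in every replicate, against 10.4% of coding genes. By rank in replicate 3 Nup160 stood above 3 of the 5 bound members. Yet the pooled list had no region within 500 bp, and its nearest summit lay 4527 bp away. The gene lay in a stretch of 26099 bp between 11119205 and 11145304 on 2L with no pooled summit. Of the 3706 gaps between pooled summits on 2L, 104 were at least as wide, and the median gap was 3461.5 bp. In that stretch replicate 1 had 3 summits, replicate 2 had 4 and replicate 3 had 6, of which 1, 1 and 3 were N best. Over the genome, 2238 N-best summits of replicate 2 had an N-best summit of both other replicates within 150 bp, and 2 of these (0.0894%) had no pooled summit within 500 bp. One was at Nup160 and the other lay on the X, 131 bp from the TSS of CG11699. Why the pooled list lacks the region was not tested.

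Inner ring proteins form the scaffold around the channel. Of the 6 inner ring genes with a Nup symbol 1 was bound, beside 15.9% of all coding genes. Nup93-2 (FBgn0038274, chr3R:14895703-14898372, minus strand), a copy of the ring subunit Nup93, had a signal of 152.7 and rank 3141 (chr3R:14898193-14898608). Replicate 2 ranked it 2527, inside the N best, but replicate 1 ranked it 5464 and replicate 3 ranked it 10781, so it was among the N best of replicate 2 alone. The replicate 1 summit lay 129 bp from the passing one. The paralogue Nup93-1 had no summit in any list, and its nearest passing summit was 7134 bp away. Nup35, a membrane-facing subunit, had a region in each replicate list and the pooled list but no passing site, with ranks of 6255, 6800 and 10141 in the replicates and 6174 in the pool, none with a q under 0.05. Nup154, the fly Nup155, had background regions of rank 19695 in replicate 2 and 10621 in the pool. Nup188 and Nup205, the large subunits of the ring, had no summit.

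The gene of the cleaved precursor, which was bound, also encodes a channel protein but was counted with the outer ring only. None of the 3 other channel genes, the 2 filament genes or the 2 basket genes with a Nup symbol was bound. Nup58, a channel protein, came closest, with ranks of 4219, 6103 and 11874 in the replicates and 5133 in the pool, where its q was under 0.05. Nup62, its partner in the channel, had ranks of 10701 in replicate 2 and 15308 in the pool, and Nup54 had no summit. Nup358, the large filament protein known in mammals as RanBP2, had 1 summit, of rank 26592 in replicate 3, although its 5′ neighbour Nup37 carried the strongest site of all members. Its own TSS lay 1824 bp from the nearest passing summit. Nup214, another filament protein, and Nup50 and Nup153 of the basket had no summit. In all, 8 of the 21 members had no summit in any of the 5 lists, 3 had one in replicates only, 5 had a pooled region that did not pass, and 5 passed. These combined classes were not counted over all coding genes. List by list, a region at a TSS was found for 47.6% of members in the pool, against 32.2% of coding genes. In replicates 1, 2 and 3 it was 47.6, 52.4 and 42.9% of members, against 32.8, 36.2 and 38.5%. Lacking a region was thus the more common state of coding genes in each of these lists.

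The bound members shared an arrangement that the choice by symbol did not use. Each lay head to head with another coding gene on the opposite strand, and in each case the passing summit was at most 500 bp from that gene's TSS too. Such a neighbour was also the more common state among all bound coding genes, at 1220 of 2220 (55.0%). Nup37 lay 144 bp from RpS27, a ribosomal protein gene, and Nup98-96 lay 144 bp from mbc, which encodes an activator of the GTPase Rac needed for myoblast fusion. Nup133 was 227 bp from wfs1, the fly wolframin gene, Nup93-2 was 367 bp from CG3817, and Nup43 was 476 bp from WRNexo, an exonuclease gene. The summit was not always nearer to the nucleoporin gene. At Nup37 it lay 10 bp from the TSS of RpS27 and 134 bp from that of Nup37. The Nup133 summit lay 83 bp from the TSS of wfs1 and 144 bp from that of Nup133. At Nup98-96 the distances were 62 bp for the member and 206 bp for mbc, at Nup93-2 they were 29 bp and 338 bp for CG3817, and at Nup43 they were 201 bp and 275 bp for WRNexo. When each summit was given only to the nearest TSS, 3 members stayed bound (Nup98-96, Nup93-2 and Nup43), while Nup37 and Nup133 did not.

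**Figure D3:**
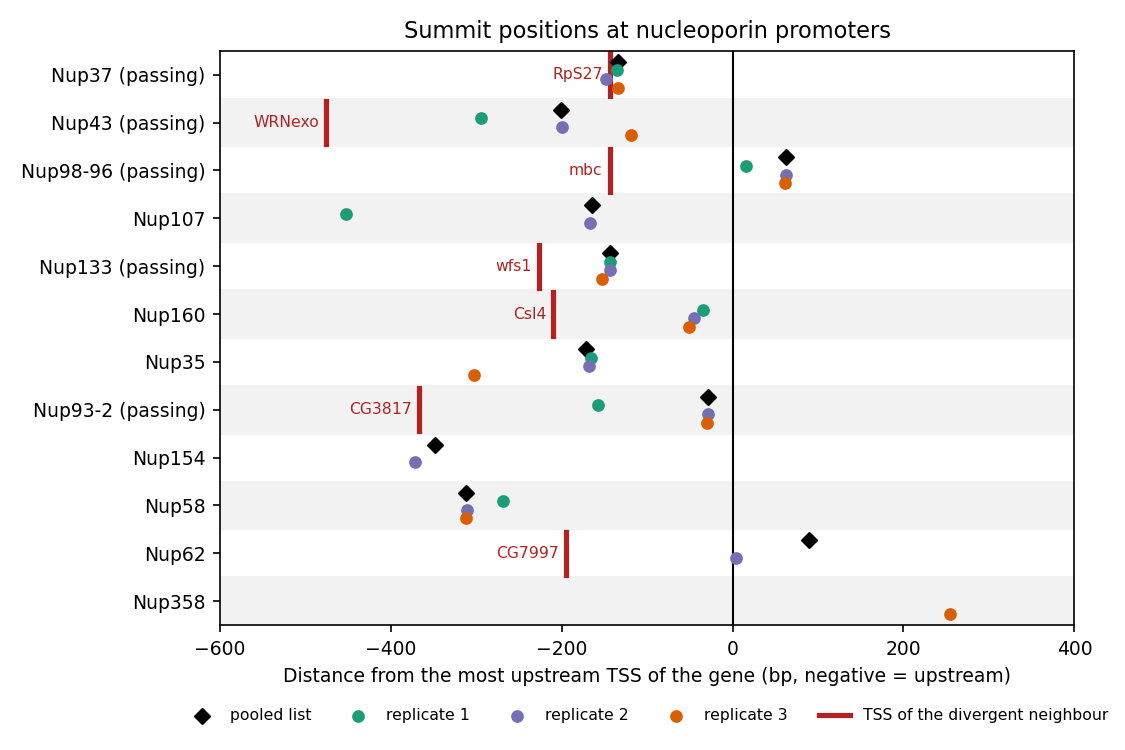
Summit position relative to the most upstream TSS of each nucleoporin gene (x axis, bp, negative upstream) in the pooled list (diamonds) and the replicates (circles), for the genes with a summit except Nup44A, whose summit lies at an internal TSS. Red bars mark the TSS of a divergent coding gene within 500 bp. The Nup37 summits sit at the TSS of RpS27, and the Nup160 summits lie 35 to 51 bp upstream of its own TSS.

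Divergent neighbours were common among the nucleoporin genes, at 14 of 21 (66.7%) against 27.4% of coding genes. Over all coding genes those with a divergent coding neighbour within 500 bp were bound at 32.0%, and those without one at 9.87%. The members followed the same order, with 5 of 14 (35.7%) and 0 of 7. Within each class the members' count was thus near that of other coding genes. Of the bound coding genes with such a neighbour, 92.9% shared the passing summit with it, as all 5 members did. The share bound differed between gap widths without a steady rise. Coding genes with a gap of up to 100 bp were bound at 22.9% (95% exact binomial interval 20.1 to 25.9), and those in the next class, up to 200 bp, at 22.0% (19.0 to 25.3). The share was 38.3% (35.3 to 41.3) at 201 to 300 bp, 41.2% (37.6 to 44.8) at 301 to 400 bp and 33.7% (29.5 to 38.0) at 401 to 500 bp. These intervals take genes as independent, but divergent genes come in pairs that mostly share a summit, so the intervals are too narrow. A region of the pooled list lay at a TSS of 35.2% of coding genes with a gap of up to 100 bp, so most lacked one. All 4 members with a gap of up to 100 bp, Nup153 (26 bp from CG9784), Nup50 (35 bp from Asap), Nup188 (70 bp from CG13148) and Nup75 (87 bp from CG42518), were without a summit in any list. Nup205, 155 bp from pico, and Nup214, 365 bp from ReepA, also had none, although pico and ReepA were themselves bound. The passing summits nearest to these members lay 1527 and 1505 bp from their TSS. The remaining divergent members without a passing site were Nup44A, 145 bp from ACC, Nup62, 195 bp from CG7997, and Nup160, 210 bp from Csl4, an exosome subunit gene.

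**Figure D4:**
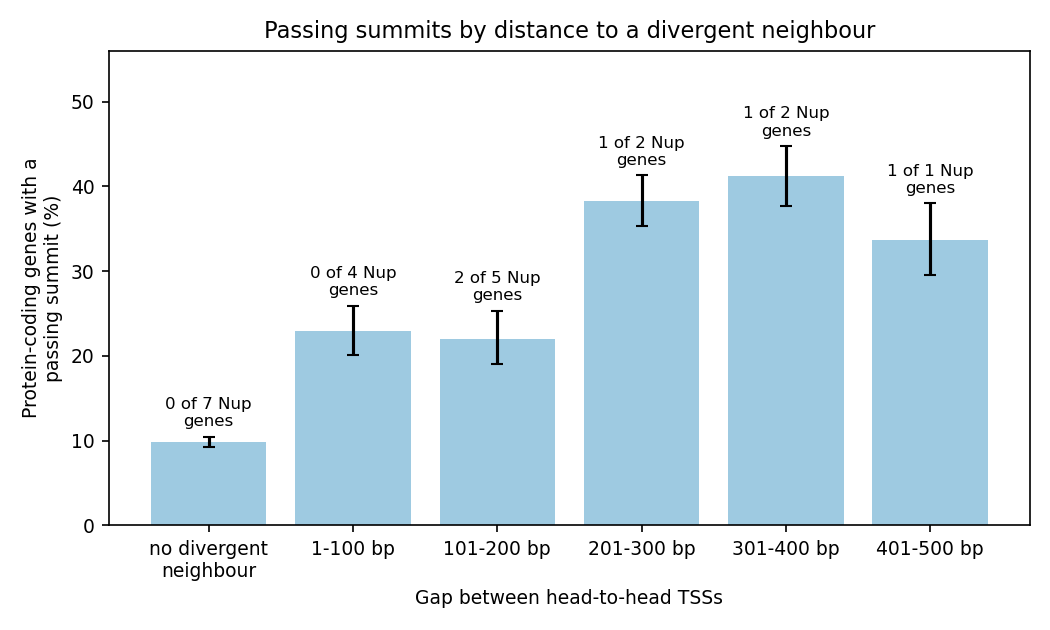
Share of protein-coding genes with a passing summit (bars, y axis in percent, with 95% exact binomial intervals) by the gap to a divergent coding neighbour (x axis, bp). The intervals of the gap classes are too narrow, since they take genes as independent while divergent pairs mostly share a summit. The numbers above the bars count bound nucleoporin genes. The share is 9.87% without such a neighbour and 41.2% at 301 to 400 bp.

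The bound members were not spread evenly over the chromosomes. All 5 were among the 7 nucleoporin genes of 3R, where 17.8% of coding genes were bound. None of the 7 on 2R was bound, against 14.2% of its coding genes, nor any of the 4 on the X (14.6%) or the 3 on 2L (15.7%). Nup160, with its sites in the replicates, is on 2L. The 5 sites were far apart, from a summit at 14898401 for Nup93-2 to one at 25247524 for Nup37. This pattern was noticed after the values were seen. The number of TSSs differed too, since 2 of the 4 members with over 1 TSS were bound against 3 of the 17 with 1, and over all coding genes the shares were 27.0 and 11.9%.

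Base composition at the summits ranged widely. The window of 50 bp to each side of the Nup133 summit held 12.9% G and C, and 6 of the 1543 passing sites at coding promoters were at or below it. The Nup37 summit, with 50.5%, lay above the 95th percentile of 49.5%. Nup98-96 with 35.6%, Nup93-2 with 37.6% and Nup43 with 43.6% lay between, and the median over all promoter sites was 30.7%. Of the 10 words searched in these windows, TATAAA (the TATA box) and TAATTA (a homeodomain core) were at Nup133 among bound members, and both were also in the replicate 2 window of Nup160. They are found in 25.8 and 11.3% of all promoter sites. Beyond the windows, the printed Nup133 stretch also holds CGATA at 2 places and CAGCTG at 1, and the printed Nup37 stretch holds TATAAA. Within the windows, CAGCTG (the core of promoter Motif 5) was at Nup37 and is in 2.98% of promoter sites. CGATA (the core bound by BEAF-32, also part of the DRE word) was at Nup93-2 and is in 16.8%. The windows of Nup43 and Nup98-96 held none of the 10. The other words were in the window of no bound member, namely TATCGATA (the DRE, in 2.01% of promoter sites), GGTCACACT (promoter Motif 1, 0.454%), AGATAA (a site of GATA factors, 8.36%), GAGAG (the GAGA factor, 6.93%), CACGTG (the E-box of Myc, 0.713%) and CAGGTAG (Zelda, 0.324%). A word is a match of letters and not a measured site.

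Genes of the pore, of transport and of the envelope with other symbols were counted beside the nucleoporin genes. None of 9 further pore genes was bound (95% exact binomial interval 0 to 33.6%), against 15.9% of coding genes. They include Elys, which starts pore assembly on chromatin, and Sec13, a Y complex subunit. Elys shares a divergent promoter with the exportin gene Ranbp21, and the region there ranked 4088 in the pool, just outside the final list. Sec13 ranked 5034 in the pool, yet was among the N best of 2 replicates. Ndc1, a membrane protein of the pore, ranked 7915. A pooled region at a TSS was thus found for 3 of the 9 (33.3%), against 32.2% of coding genes. Of 26 nuclear transport genes 6 were bound, or 23.1% (95% exact binomial interval 8.97 to 43.6). This was beside 15.9% of coding genes and 23.8% of nucleoporin genes. The median rank was 548.5 for the 6 bound transport genes, against 2465 for 5 bound nucleoporin genes and 1493.5 for all bound coding genes. RanGAP, the activator of the GTPase Ran, had a signal of 712.1. Tnpo (529.9), the gene of an import receptor, Kap-alpha3 (488.6), of an importin alpha, and Tnpo-SR (465.5), of the importer of splicing factors, followed. Of the 6 bound transport genes 5 had a divergent neighbour, beside 55.0% of all bound coding genes. Of 11 genes of the nuclear lamina and envelope 2 were bound, or 18.2% (95% exact binomial interval 2.28 to 51.8), beside 15.9% of coding genes. They were Msp300 (816.5), which links nuclei to actin, and klar (220.6), which moves nuclei along microtubules. The lists are short and were chosen with earlier results known, so these counts describe them and no test was run.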

How the data were processed

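Per the labels, chromatin of whole embryos was sonicated before precipitation. Each replicate list and the pooled list hold, per their deposited README text, peaks and background, and the final list derives from all of them. Not given in the sources used here were the aligner, the peak caller, the threshold or any version. The signal column and the -log10 q column are as deposited by the authors, their normalization not stated, and the dm3 lists were not used. No count of reads was available here, so depth is unknown and intervals cover counting error over genes only.

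Summits were placed on genes of Ensembl release 115 (BDGP 6.54, the coordinates of dm6) with Python 3.11.15, pandas 2.3.3 and scipy 1.17.1. The placing steps were tested on simulated data. Divergent neighbours are coding genes with a TSS on the opposite strand at most 500 bp upstream. Summits within 150 bp were taken as shared. All members were named. From the further lists the bound members of highest signal were named. The further pore genes with a pooled region were named too, with Ranbp21 as the neighbour of Elys. Megator was looked up as Mgtor, its current symbol. Members, lists and words were chosen with earlier results of these data known, so no test was run over them.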

Additional observations from a re-analysis of the deposited data

How the results depend on the processing

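The count of 5 bound nucleoporin genes was the same within 250 bp of a TSS and with the most upstream TSS only, and rose to 6 within 1000 bp (with Nup44A) or with pooled regions of q under 0.05 (with Nup58). It was 2 with the 1961 strongest regions of the final list, 3 with the nearest gene only and 3 with the N best of every replicate. In this section that last rule also required the N-best summits to lie within 150 bp of that of the first replicate used. Leaving out a replicate, which also uses the N best of those that remain in place of the final list, gave 3 to 4. The share of all coding genes was 12.1% within 250 bp, 18.4% within 1000 bp, 9.76% with the 1961 strongest, 20.7% with pooled q under 0.05, 11.6% with the nearest gene only, 13.9% with the most upstream TSS and 10.3% with the N best of every replicate, and on that rule 10.5 to 13.0% without a replicate. The mean share of members over replicates was 11.1% with the 1961 best regions of each and 28.6% within 1000 bp, and 19.0 to 23.8% without a replicate. The median rank in each replicate list, averaged over the replicates that remained, was 2551 to 3018.5 without a replicate. Summits of all 3 replicates lay within 75 bp of the passing one at 3 members in place of 5, without Nup43 and Nup93-2. The cause of these moves was not tested, beyond the number of sites or the distance that each setting fixes. No paired analysis was possible because there is 1 group. Depth limits could not be given, since the lists hold no read counts.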
